A study of Mus musculus with 8 samples.

Results

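The STAT and JAK genes examined here were Stat2, Stat3, Stat4, Stat5a, Stat5b and Stat6 and Jak1, Jak2 and Jak3, 9 of the 37252 genes annotated on the mouse genome mm9. They were chosen by name, 6 STAT genes and 3 JAK genes. For each gene the summits of NFATc2 binding within 100 kb of any of its transcription start sites (TSSs) were collected, together with the peaks of H3K4me3 that overlapped the gene or came within 1 kb of a TSS. NFATc2, also called NFAT1, is a transcription factor that enters the nucleus when calcium activates the phosphatase calcineurin. H3K4me3, histone H3 trimethylated at lysine 4, marks the start of active genes.

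Janus kinases (JAKs) sit on the inner tails of cytokine receptors and phosphorylate them when a cytokine binds. STAT proteins dock on the phosphorylated receptor, are phosphorylated in turn, pair up and move to the nucleus as transcription factors. SOCS proteins, which STATs themselves induce, shut the pathway down again. In dendritic cells (DCs), Jak2 and the Stat5 proteins carry the signal of the growth factor GM-CSF, Jak1 and Jak3 serve the receptors that share the common gamma chain, Stat3 serves interleukin 10 and interleukin 6, Stat4 serves interleukin 12, Stat6 serves interleukins 4 and 13, and Stat2 serves the type I interferons.

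All libraries came from D1 cells, which are DCs of a C57BL/6 spleen grown as a lasting line that the study kept in medium with GM-CSF from transfected fibroblasts, so control and treated cells alike received this cytokine. NFATc2 was mapped through a V5 tag in D1 cells that carried tagged NFATc2 from a lentiviral vector and had been sorted for low expression of a linked GFP, after 30 min with 10 μg/ml curdlan, a beta-glucan that activates the receptor dectin-1. H3K4me3 was mapped in non-treated cells (NT), after 2 h with 10 μg/ml curdlan, and after 2 h with curdlan and FK506, an inhibitor of calcineurin. A single ChIP library with its own input stood for each condition, 8 samples in all, and no NFATc2 library without curdlan or with FK506 was analysed here.

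With 1 library per condition there is no replicate spread and no test between conditions, so values are set side by side, intervals cover counting error only, and a gene is called higher or lower when it passes 1.5-fold. The NFATc2 library held 14377535 ChIP tags and 9438 peaks, and the H3K4me3 libraries held 16662316 to 21289349 ChIP tags and 14872 to 15799 peaks. The NFATc2 list used here is shorter than the number of peaks the study gives, so the numbers of summits, and their absence at a gene, hold for this list only. The input behind the H3K4me3 lists was deepest for NT, where 1.38 ChIP tags were counted per input tag, against 2.29 with curdlan and 1.96 with curdlan and FK506. Of the DC markers looked up, 8 of 8 found in the annotation had an H3K4me3 peak in every list, at 17.8 to 234 normalised tags in NT, which are tags summed over a gene's peaks per 1000000 ChIP tags of the library. Of 10 markers of T, B, NK, epithelial and liver cells, 7 had no peak in any list, among them Cd3e and Ncr1, and 3 had one in every list. These were the B cell genes Cd79a (71.0, 58.7 and 54.1 normalised tags in NT, in curdlan and in curdlan with FK506) and Pax5 (12.1, 10.5 and 11.5) and the T cell gene Lck (19.7, 23.2 and 22.3).

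NFATc2 summits lay within 100 kb of 8 of the 9 genes, where 55.4% of all protein-coding genes had one. Within 10 kb there were 6 of 9 genes, against 16.3% of protein-coding genes, and within 1 kb there were 2 of 9, Stat5a and Jak3, against 5.29%. The genes are not independent in this count, because Stat3, Stat5a and Stat5b lie side by side on chromosome 11 and 2 of the 23 summits were within 100 kb of more than 1 of them. Only 8 of the 23 summits had a STAT or JAK gene as the gene with the nearest TSS, and these 8 belonged to Jak2, Stat5a and Jak1. The 23 peaks held 26 to 298 tags with a median of 70, where the median of all NFATc2 peaks was 63.

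**Figure D1:**
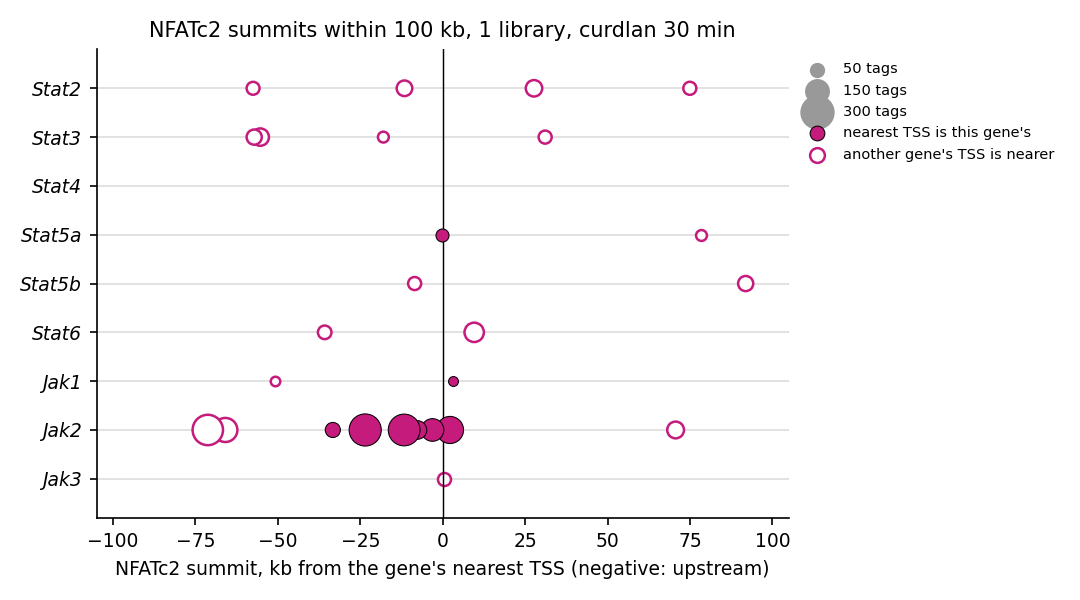
NFATc2 summits by distance in kb from the nearest TSS of each gene (negative values upstream), with the area of each circle in proportion to the tags of the peak and filled circles where no other gene starts nearer. Jak2 has 9 summits and Stat4 has none, and those at Stat5a and Jak3 lie within 1 kb of the TSS.

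The sequence under 5 of these summits is given in windows of 201 bp centred on the summit, read from the plus strand of mm9. They are the summits nearest to a TSS at Stat5a, Jak3, Jak1 and Jak2 and the Jak2 summit with the lowest p-value, since these are the sites to which the values below refer. Capitals mark matches on either strand to GGAAAA, the core that NFAT proteins bind, to TGANTCA, the form bound by the AP-1 partners of NFAT, or to TTCNNNGAA, the form bound by STAT dimers.
Stat5a, 122 bp upstream of the TSS, chr11:100720443-100720643: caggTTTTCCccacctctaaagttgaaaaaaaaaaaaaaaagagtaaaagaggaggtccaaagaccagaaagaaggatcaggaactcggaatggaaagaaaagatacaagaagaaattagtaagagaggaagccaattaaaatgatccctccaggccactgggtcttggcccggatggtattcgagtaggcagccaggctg
Jak3, 336 bp downstream of a TSS, chr8:74200687-74200887: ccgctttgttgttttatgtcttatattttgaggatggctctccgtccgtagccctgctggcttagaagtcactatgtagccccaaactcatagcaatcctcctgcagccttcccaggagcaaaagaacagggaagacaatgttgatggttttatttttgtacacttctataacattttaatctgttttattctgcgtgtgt
Jak1, 2989 bp downstream of an internal TSS, chr4:100854941-100855141: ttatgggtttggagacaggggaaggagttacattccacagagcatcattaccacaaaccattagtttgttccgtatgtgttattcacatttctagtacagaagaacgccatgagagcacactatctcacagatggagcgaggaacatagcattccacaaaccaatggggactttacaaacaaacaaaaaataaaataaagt
Jak2, 2220 bp downstream of the TSS, chr19:29328438-29328638: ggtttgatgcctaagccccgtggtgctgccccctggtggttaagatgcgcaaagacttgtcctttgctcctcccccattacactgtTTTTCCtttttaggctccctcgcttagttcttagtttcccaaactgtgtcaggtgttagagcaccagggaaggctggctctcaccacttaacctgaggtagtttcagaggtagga
Jak2, 23501 bp upstream of the TSS, chr19:29302717-29302917: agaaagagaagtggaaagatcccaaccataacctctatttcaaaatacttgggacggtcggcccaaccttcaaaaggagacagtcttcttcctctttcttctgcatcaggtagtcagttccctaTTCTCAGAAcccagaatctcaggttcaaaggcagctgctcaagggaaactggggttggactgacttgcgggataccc

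GGAAAA was present in 9 of the 23 windows near STAT and JAK genes, and in 45.6% of all 9438 NFATc2 windows. It was present in 17.8% and 18.1% of windows 1 kb to the left and to the right of the summits. TGANTCA was found in 2 of the 23 windows and in 21.8% of all, TTCNNNGAA in 3 of the 23 and in 12.0% of all. In the window at the Stat5a start the 1 match, read as its complement, was 94 bp to the left of the summit, and in the Jak2 intron it was 12 bp to the left. The windows at Jak3 and in the Jak1 intron held none of the 3 motifs, which says only that these letters are not in these windows.

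Among the kinases, Jak2 (chr19:29326318-29387570, plus strand) had 9 NFATc2 summits within 100 kb, a number that 132 of the 22350 protein-coding genes, or 0.591%, reached. Jak2 is a kinase of the receptors for GM-CSF, interferon gamma and interleukin 12. Its summits spanned 141.9 kb, from 71247 bp upstream to 70654 bp downstream of the TSS. The peak 23501 bp upstream held 298 tags (fold enrichment 8.15 over the local background, FDR 0.07%), the peak 11685 bp upstream 291 tags, the peak 71247 bp upstream 266 tags and the peak 2220 bp downstream, in an intron of Jak2, 212 tags. The peak at 65923 bp upstream held 167 tags, at 3089 bp upstream 148, at 7656 bp upstream 100, at 70654 bp downstream 81 and at 33323 bp upstream 66. Jak2 was the gene with the nearest TSS for 6 of the 9, while the pair beyond 60 kb upstream lay nearer to Gm5518 and the summit downstream nearer to Insl6.

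Some of the Jak2 peaks combined many tags with modest fold enrichment. The peak 71247 bp upstream, with 266 tags, had a fold enrichment of 13.39, where the median of all NFATc2 peaks was 13.36. Tags per kb divided by fold enrichment is only a rough guide to the background density that MACS set against a peak. Its tags are averaged over the whole peak, so the shape and length of a peak can also enter. The value was 14.1 for the NFATc2 peak 11685 bp upstream and 13.7 for that 23501 bp upstream. Both exceeded 99.9% of the NFATc2 peaks, whose median was 4.24. At the site 33323 bp upstream the value was 4.92. Whether a denser background at this locus raised the number of Jak2 summits was not tested.

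Jak3 (chr8:74200195-74214474, plus strand), the kinase of the common gamma chain, had 1 summit, in an intron and 336 bp downstream of a TSS. That peak held 49 tags, with a fold enrichment of 11.95 and an FDR of 0.84%. The start of Gm9933 was nearer, with the summit 214 bp upstream of it. Jak1 (chr4:100824972-100937887, minus strand), the kinase that pairs with most class II and common gamma chain receptors, had 2 summits with the lowest tag counts of the set. The peak with 28 tags (FDR 0.46%) lay in an intron, 2989 bp past the start of a short internal transcript, and the peak with 26 tags lay 50.9 kb upstream in an intron of Gm12796. These 28 and 26 tags placed them at the 9.24 and 7.16 percentiles of all NFATc2 peaks.

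Among the STAT genes, the summit 122 bp upstream of Stat5a (chr11:100720665-100746483, plus strand) was the only one nearer to a STAT gene start than to that of any other gene. Its peak, chr11:100719583-100720885, held 49 tags with a fold enrichment of 7.21 and an FDR of 3.24%, the highest FDR of the 23 peaks. Stat5b (chr11:100642045-100712038, minus strand) starts 8627 bp away in the opposite direction, so the same summit lay 8505 bp upstream of Stat5b. The 2 genes encode closely related proteins that carry the signals of GM-CSF, interleukin 2 and interleukin 3. Stat5b had a further summit of 66 tags 91.9 kb downstream of an internal TSS, at the start of Rab5c. The next summit beyond it was outside the limit at 101 kb.

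Stat3 (chr11:100746412-100800854, minus strand) had 4 summits in range, of which the nearest, 17988 bp upstream and with 34 tags, lay in an exon of Ptrf. Those 55335 and 57170 bp upstream held 87 and 66 tags and lay nearest to Atp6v0a1. Stat6 (chr10:127080042-127098013, plus strand) had a summit of 108 tags 9558 bp from an internal TSS, which lay 390 bp upstream of the start of Nab2, and 1 of 53 tags 35785 bp upstream in an intron of Lrp1. Stat2 (chr10:127707629-127729905, plus strand) had 4 summits of 48 to 78 tags. The one of 78 tags, 27704 bp from a Stat2 TSS, was at −196 bp from the start of Il23a, the gene of the specific subunit of interleukin 23, and the nearest, 11589 bp upstream, was nearer to Apon. Stat4 (chr1:52043992-52164032, plus strand) had no summit in range in the list used here, and its nearest was 181.9 kb upstream.

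H3K4me3 peaks were found at 8 of the 9 genes in NT, in curdlan and in curdlan with FK506 alike, where 51.5%, 51.2% and 51.1% of protein-coding genes had one. The exception in each list was Stat4, the STAT of interleukin 12 signalling, for which the nearest H3K4me3 peak was 5.62 to 5.85 kb past the end of the gene. The 8 genes held 14 peaks in NT and 15 in each of the other lists. Of the 23 NFATc2 peaks near the genes, 8 overlapped an H3K4me3 peak in NT and 9 did in curdlan and in curdlan with FK506, and 24.9% of all NFATc2 peaks overlapped an H3K4me3 peak of the curdlan list. Those at the starts of Stat5a and Jak3, in the Jak1 intron and on both sides of the Jak2 TSS were among them in all 3 lists. The H3K4me3 peak in the Jak1 intron was weak in the curdlan list, with an FDR of 16.23%.

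Between genes, levels are compared as normalised tags per kb of peak, taken over all peaks of a gene. In NT Jak2 had the highest value at 31.8, followed by Stat6 at 23.1, Stat2 at 15.9, Jak3 at 15.4, Stat3 at 14.9, Stat5a at 10.1, Stat5b at 9.43 and Jak1 at 8.91. The 95% counting intervals of Stat2, Jak3 and Stat3 overlapped one another, as did those of Stat5a, Stat5b and Jak1. The median of all genes with a peak was 14.0. With curdlan Jak2 and Stat6 stayed first at 28.8 and 21.7, while Stat5a, at 12.5, stood beside Stat3, at 12.8, with overlapping intervals. With curdlan and FK506 Stat5a was at 15.1, after Jak2 at 30.2 and Stat6 at 22.7. The order depended in part on peaks outside the promoter that held fewer tags per kb. In NT the promoter peak alone held 16.4 at Stat3 and 10.8 at Jak1, and the promoter peaks of Stat5b held 13.6 and 4.98. At Stat3 and Stat5a the promoter peak held 14.2 and 15.6 with curdlan, and 15.3 and 15.1 with curdlan and FK506.

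**Figure D2:**
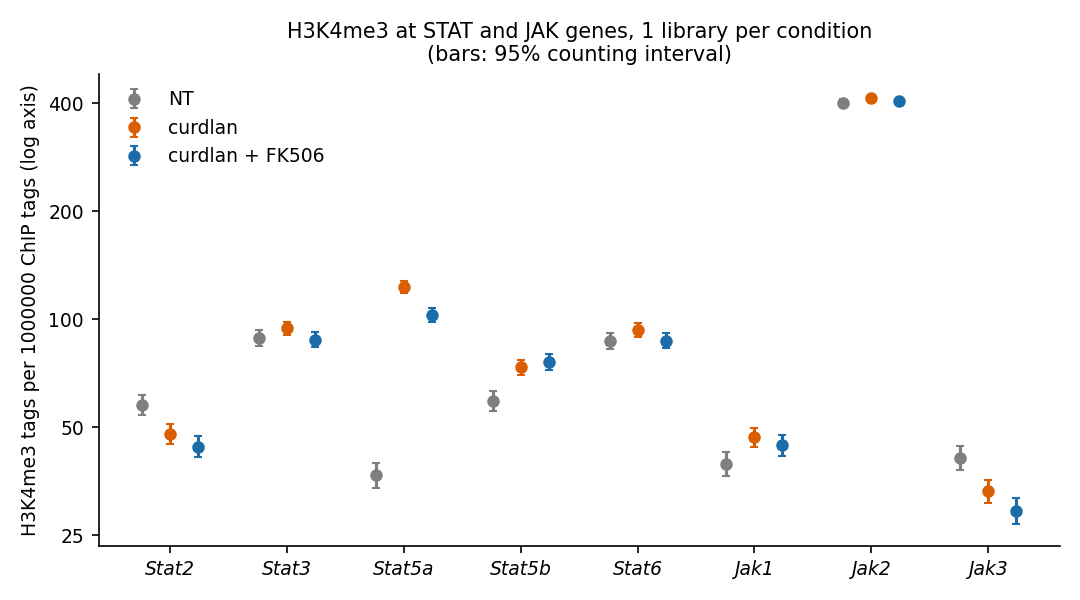
Normalised H3K4me3 tags (per 1000000 ChIP tags, log axis), summed over the peaks of each gene, in NT, curdlan and curdlan with FK506, with 95% counting intervals and 1 library per point. Stat5a goes from 36.8 in NT to 123 and 103, and Jak2 lies between 401 and 413.

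By summed tags, the largest difference between curdlan and NT among the 8 genes was at Stat5a. Its normalised H3K4me3 tags were 36.8 (95% Poisson interval 33.9 to 39.8) in NT, 123 (119 to 128) with curdlan and 103 (98.3 to 107) with curdlan and FK506. Both curdlan libraries were far above NT, and their intervals did not meet. The ratio of curdlan to NT was 3.35-fold (95% counting interval 3.07 to 3.67, log2 1.74), and only 0.269% of the 13019 genes marked in both lists, 35 genes with Stat5a among them, had a ratio as high. The ratio of curdlan with FK506 to NT was 2.79-fold (2.55 to 3.06, log2 1.48). Against curdlan alone the FK506 library was lower in summed tags, at a ratio of 0.833 (0.786 to 0.883), which is short of 1.5-fold. Per kb over all peaks it was higher than curdlan alone, where the curdlan sum includes a second, weak peak. At the TSS peak alone, normalised tags per kb were 15.6 with curdlan and 15.1 with FK506. The direction per kb thus depended on whether the weak peak was included. Of the rise of 86.5 normalised tags with curdlan, 65.9 normalised tags, or 76.2%, were present with FK506.

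The added Stat5a signal was spread over a longer stretch. The peak reached from 923 bp upstream of the TSS to 2735 bp into the gene in NT, and in curdlan from 1837 bp upstream to 5739 bp into the gene, followed after a gap of 208 bp by a second, weak peak of 113 tags that neither other list had. With FK506 it ran from 1831 bp upstream to 4991 bp into the gene. The summed length was 3659, 9840 and 6823 bp in NT, curdlan and curdlan with FK506. The upstream edge was thus near the same place with and without FK506, and the edge inside the gene was nearer to the TSS with FK506. Over all its peaks, the ratio of curdlan to NT in tags per kb at Stat5a was 1.25-fold, which does not pass 1.5-fold. The curdlan sum includes the weak second peak, which held 2.35 normalised tags per kb. The peak at the TSS alone held 15.6 with curdlan and 10.1 in NT, which is past 1.5-fold. Over all peaks the library with FK506 was above curdlan alone, at 15.1 against 12.5 normalised tags per kb. Against the 10.1 of NT it stayed just short of 1.5-fold. At the TSS peak alone the library with FK506 was slightly below curdlan, at 15.1 against 15.6. The lower summed tags with FK506 thus went with a shorter summed length, while tags per kb at the TSS peak were close in the curdlan libraries.

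**Figure D3:**
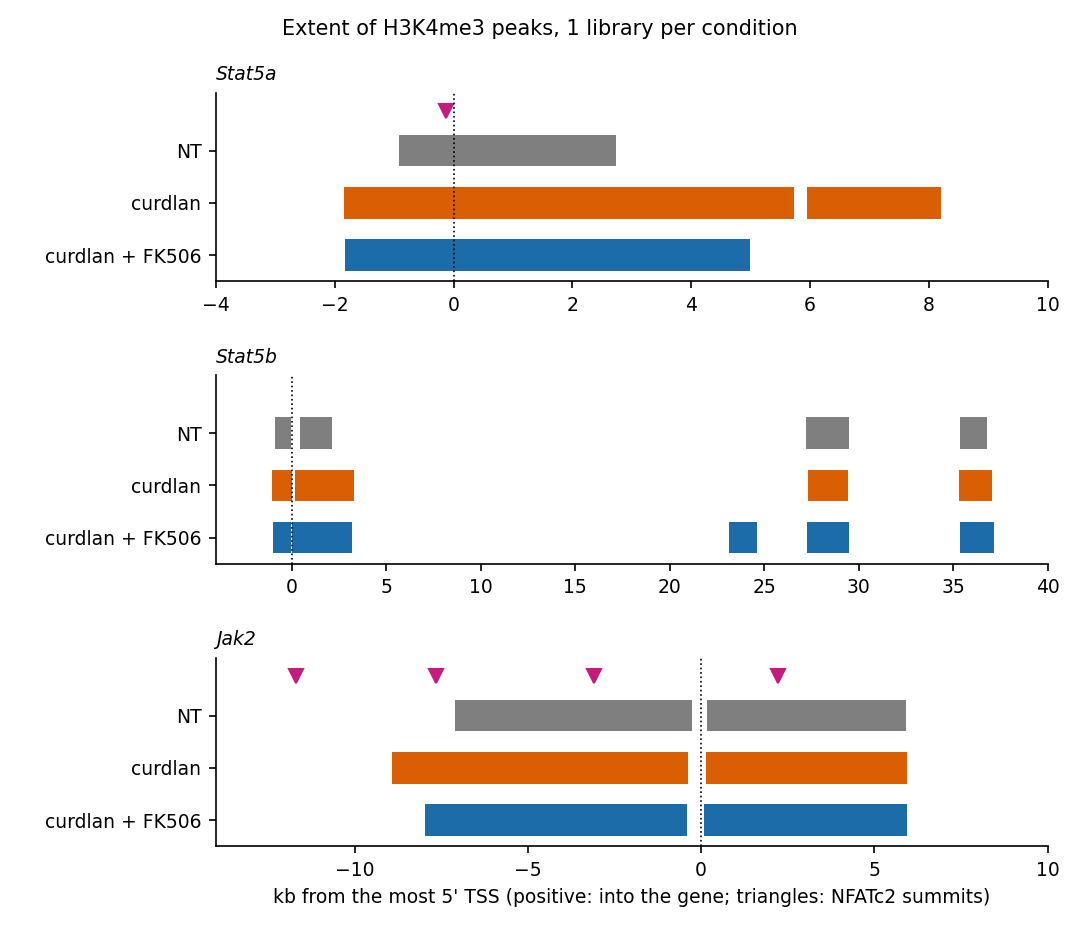
Extent of the H3K4me3 peaks at Stat5a, Stat5b and Jak2 in kb from the most upstream TSS (positive values into the gene), 1 bar per peak, with NFATc2 summits as triangles. The Stat5a peak of 3659 bp in NT extends to a summed 9840 bp with curdlan, and at Jak2 a gap holds the TSS in every list.

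Of the 8 genes with a ratio, Stat5a was the 1 gene past 1.5-fold higher with curdlan, against 2.58% of all genes, and no gene was past 1.5-fold lower, against 3.96%. For curdlan with FK506 over NT it was again 1 gene, Stat5a, against 1.68%, and none lower, against 4.99%. Between the 2 curdlan libraries no STAT or JAK gene passed 1.5-fold in either direction, where 0.516% of all genes were higher and 1.67% lower with FK506. The median log2 ratio of all genes was −0.13 for curdlan over NT, −0.04 for curdlan with FK506 over curdlan and −0.18 for curdlan with FK506 over NT. Relative to those medians, Stat5a stood at 1.88, −0.22 and 1.66. Centring on them left the calls of STAT and JAK genes as they were, and changed the shares of all genes to 3.77% higher and 1.87% lower for curdlan over NT and to 3.02% and 1.95% for curdlan with FK506 over NT.

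Stat5b, which starts beside Stat5a, had the next highest ratio of curdlan to NT but did not pass 1.5-fold. Its normalised tags were 59.4 in NT, then 73.5 with curdlan alone and 76.2 when FK506 was added, so the summed tags of the 2 curdlan libraries lay together above NT. The log2 ratio was 0.31 (95% counting interval 0.19 to 0.42) for curdlan over NT and 0.05 (−0.05 to 0.16) for the addition of FK506. At the promoter there were 2 peaks. The one lying mostly or wholly upstream of the TSS held 4.26 normalised tags in NT, 9.07 with curdlan alone and 6.99 with FK506 added, and the one inside the gene held 22.9 normalised tags in NT, 37.4 in the curdlan library and 39.1 in the library with FK506. The peak over an internal start, 27335 bp or more into the gene with curdlan, held 22.1, 17.8 and 17.5 in the same order. The curdlan with FK506 list held 1 peak at Stat5b that the others lacked, with 68 tags and an FDR of 13.07%.

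Jak1 had 39.5, 47.0 and 44.6 normalised tags in NT, in curdlan and in curdlan with FK506, a log2 ratio of 0.25 (0.11 to 0.39) for curdlan over NT and of −0.07 (−0.21 to 0.06) for FK506. The Jak1 peak that held an NFATc2 summit, in the intron and away from the main promoter, had 6.18, 4.56 and 4.88 normalised tags. Its FDR was 0.03%, 16.23% and 2.03% in NT, in curdlan and in curdlan with FK506. The fold enrichment of the promoter peak of Jak1 was 65.4, 201 and 68.6 in the same order, while its normalised tags were 33.3, 42.4 and 39.8. The fold enrichment was thus 3.07-fold higher with curdlan than in NT and near the NT value with FK506, where the ratio of the gene's normalised tags for curdlan over NT was 1.19.

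Stat3, Stat6 and Jak2 had the log2 ratios of curdlan to NT nearest to 0. Stat3 had 88.8, 94.4 and 87.7 normalised tags and Stat6 had 87.1, 93.4 and 87.3 in NT, curdlan and curdlan with FK506. Their log2 ratios of curdlan to NT were 0.09 (−0.0095 to 0.19) and 0.10 (0.0014 to 0.20). Jak2 had 401, 413 and 405 normalised tags, and its log2 ratio of 0.04 (−0.0036 to 0.089) has the narrowest interval of the set because 6684 or more tags were counted in each list. Of all genes with a peak, 0.0903% in NT and 0.0832% with curdlan had as many normalised tags as Jak2.

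The mark at Jak2 formed 2 long peaks around a gap of 423 bp in NT, 504 bp in the curdlan list and 482 bp in the list with FK506, and the TSS lay in the gap each time. The upstream peak was 6844, 8547 and 7579 bp long with 216, 204 and 215 normalised tags, and the downstream peak was 5763, 5795 and 5850 bp long with 185, 210 and 190 normalised tags. NFATc2 peaks overlapped both, 1 upstream in NT, 2 upstream in the other lists, and 1 downstream in all. Tags per kb divided by fold enrichment ranged from 8.20 to 15.0 over these peaks, above at least 96.4% of the peaks of the same list. Some, but not all, of the NFATc2 peaks at this locus were as high in their own list. The part of a denser background in these levels was not tested.

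Stat2 and Jak3 had lower values in both curdlan libraries than in NT, by less than 1.5-fold. Stat2, which acts downstream of the type I interferon receptor, had 57.7, 48.0 and 44.2 normalised tags in NT, in curdlan and in curdlan with FK506, log2 ratios to NT of −0.27 (−0.39 to −0.14) and −0.38 (−0.52 to −0.25). Jak3 had 41.1, 33.3 and 29.2, log2 ratios to NT of −0.30 (−0.46 to −0.15) and −0.49 (−0.65 to −0.33). Of all genes, 73.2% and 78.4% had higher or equal ratios of curdlan to NT than Stat2 and Jak3. The Jak3 peak was nonetheless 3186 bp long with curdlan and 2670 bp in NT.

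**Figure D4:**
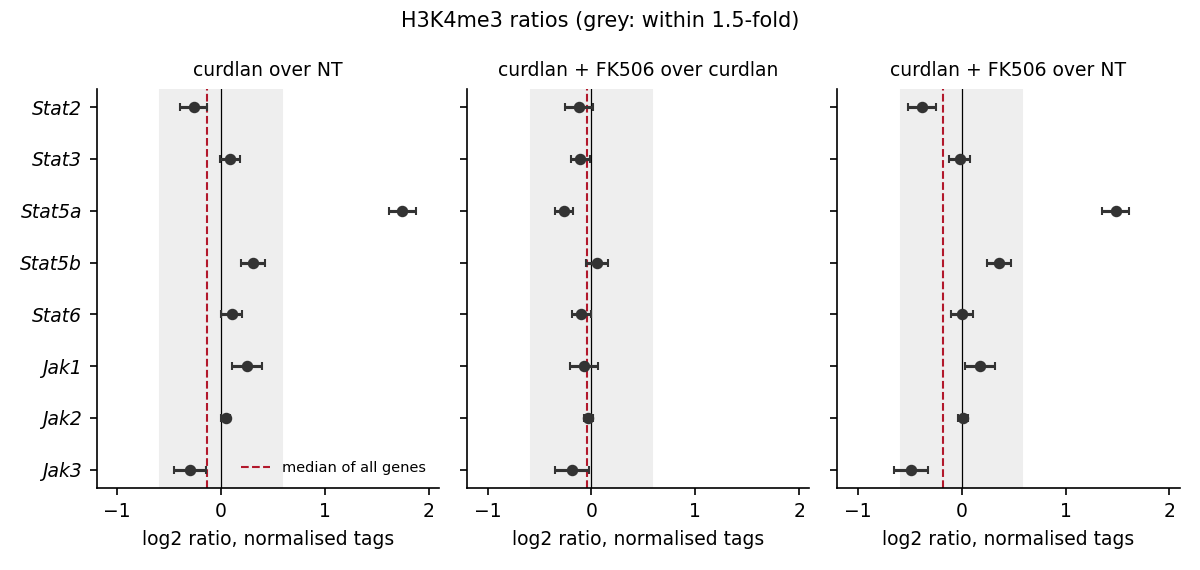
Log2 ratios of normalised H3K4me3 tags for the 3 pairs of libraries, with 95% counting intervals, the range within 1.5-fold in grey and the median of all genes as a dashed line. Stat5a, at 1.74 and 1.48, is the 1 gene outside the grey range, and in the comparison of the 2 curdlan libraries all 8 genes are inside it.

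In length, Stat5a was the 1 gene past 1.5-fold longer with curdlan than in NT, where 3.49% of all genes were longer and 1.58% shorter. With curdlan and FK506 over NT, Stat5a at 1.86-fold and Stat5b at 1.54-fold passed, against 2.39% longer and 2.14% shorter. The extra weak peak added to the length of Stat5b. For curdlan with FK506 over curdlan none passed, where 1.15% of all genes were longer and 2.39% shorter. The summed length of Stat5a in that pair was 0.693 of that with curdlan alone, and 97.1% of all genes had a ratio at least as high. The curdlan sum includes the weak second peak of 2263 bp. The TSS peak of Stat5a alone was 6823 bp long with FK506 and 7577 bp with curdlan.

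The choice of measure changed these counts. By the fold enrichment of the tallest peak, 6 of the 8 genes passed 1.5-fold higher with curdlan over NT, 4 passed with curdlan and FK506 over NT, and Jak1 passed lower with FK506 over curdlan. By that measure 60.7% of all genes were past 1.5-fold higher and 1.06% lower with curdlan over NT, and 39.7% were higher and 2.76% lower with curdlan and FK506 over NT. With FK506 over curdlan 5.69% of all genes were higher and 28.2% lower, so the call of Jak1 was one that many genes shared. Among the 8 genes, the largest ratio of curdlan to NT in fold enrichment was at Jak1. Fold enrichment depends on the input libraries, whose share of tags differed between conditions as given above, and their part in it was not tested. By tags per kb over all peaks of a gene, none of the 8 genes passed in any pair. By this measure 0.668% of all genes were higher and 4.26% lower with curdlan over NT. The shares were 0.631% and 4.13% with curdlan and FK506 over NT, and 0.469% and 0.769% with FK506 over curdlan. The TSS peak of Stat5a taken alone did pass for curdlan over NT, at 15.6 against 10.1 normalised tags per kb.

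The other genes of the pathway were taken as 34 cytokine receptors, 19 SOCS and other negative regulators and 13 STAT partners and targets. With curdlan over NT, 53 of the 66 had a peak in both lists, 4 (7.55%) were past 1.5-fold higher and 2 (3.77%) lower, where 2.58% of all genes were higher and 3.96% lower, with a median log2 ratio of −0.13, the same as that of all genes to 2 decimals. The 4 were Socs3, an inhibitor of Stat3 signalling that STATs induce (86.1, 161 and 162 normalised tags in NT, in curdlan and in curdlan with FK506), Bcl2l1, a survival gene and a target of Stat5 (163, 271 and 267), Irf8, a transcription factor of DC development (29.9, 46.6 and 48.1), and Il2rg, the common gamma chain to which Jak3 binds (37.9, 59.1 and 54.3). The 2 lower were Il12rb1, a receptor chain for interleukins 12 and 23 (16.4, 10.1 and 11.6), and Lifr, the receptor of leukemia inhibitory factor (88.3, 56.4 and 57.1).

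By group, 1 receptor of the 21 with both peaks was higher and 2 were lower, 1 of the 19 negative regulators was higher and none lower, and 2 of the 13 partners and targets were higher and none lower. With curdlan and FK506 over curdlan none of 53 passed in either direction, where 0.516% of all genes were higher and 1.67% lower. With curdlan and FK506 over NT, 3 of 54 were higher, Socs3, Irf8 and Bcl2l1, and 2 were lower, Lifr and the interferon target Mx1, where 1.68% of all genes were higher and 4.99% lower. Cish, a classical target of Stat5, had 257, 295 and 290 normalised tags, which does not pass 1.5-fold. Socs1, another inhibitor that STATs induce, had 157, 112 and 125. The log2 ratio of Stat5a to NT with curdlan, 1.74, exceeded that of each of these genes, of which Socs3 had the highest at 0.90.

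**Figure D5:**
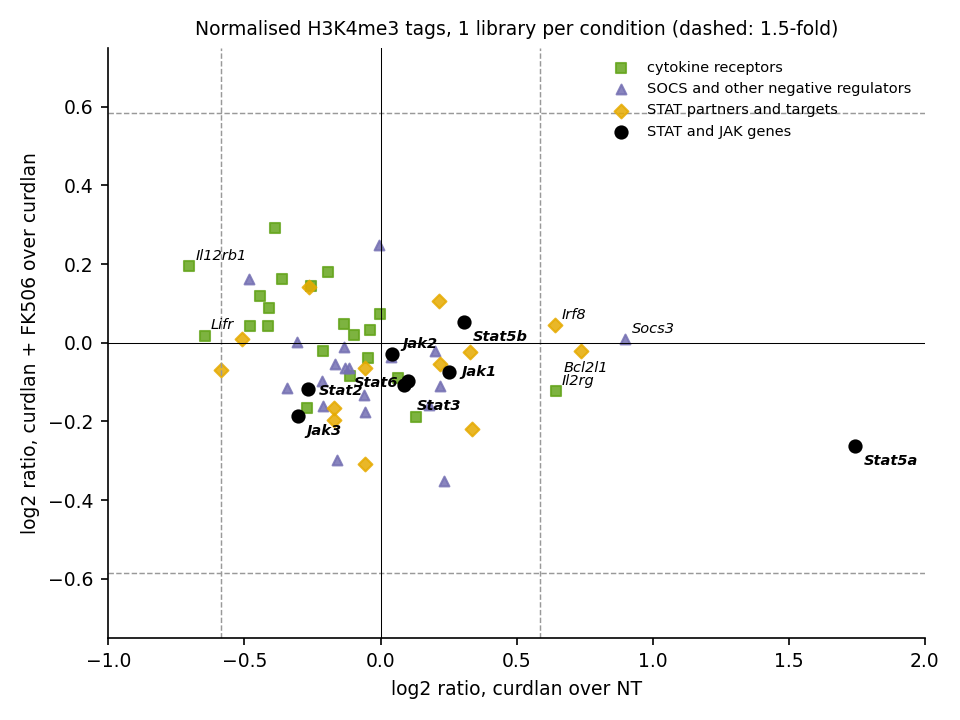
Log2 ratio of normalised H3K4me3 tags for curdlan over NT (x axis) against curdlan with FK506 over curdlan (y axis), for the STAT and JAK genes and the other genes of the pathway with a peak in all lists. The 2 axes share the curdlan library. Stat5a lies furthest to the right at 1.74, and no gene passes 1.5-fold on the y axis.

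The median of the 8 genes was a log2 ratio of 0.09 for curdlan over NT and −0.10 for curdlan with FK506 over curdlan. By distance in these 2 ratios, which share the curdlan library, the pathway genes most like that median were Il13ra1 (distance 0.031), Ptpn11 (0.085), Il2ra (0.094), Socs7 (0.10) and Ptpn2 (0.13), out of 53 considered. Il13ra1 and Il2ra encode receptor chains and Socs7, Ptpn2 and Ptpn11 encode a SOCS protein and tyrosine phosphatases.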

How the data were processed

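Peak lists of 4 ChIP-seq libraries of D1 cells were used, each called by the authors against its own input. Reads were aligned by the authors with Bowtie on the mm9 build, and peaks were found with MACS (version 1.4.2 per the file headers) at a p-value threshold of 1e-05. The deposited tag count of a peak is raw. The deposited score is −log10 of the p-value multiplied by 10, the deposited fold enrichment is a ratio to the local background, and the FDR is in percent in the authors' lists. The number of tags left after filtering in each header equals the total. Here, tags were summed over a gene's peaks (overlap of 1 bp or more) and given per 1000000 ChIP tags. Genes came from Ensembl release 65 (GENCODE M1) and sequence from NCBI mouse build 37. Intervals are exact Poisson for levels and Clopper-Pearson (conditional on the sum of tags) for ratios, at 95%, from scipy, and cover counting error only. Every STAT and JAK gene was named, other pathway genes where they passed 1.5-fold, were gained or lost, or were among the 5 most alike, and any other gene where it started nearest to a summit, with Cish, Socs1, the genes with a start within 1 kb of a summit and the markers added for background. The genes and lists were chosen with earlier results of these data known. Of the cell type markers, 1 is not reported here. Overlap, distance and ratio code was tested on simulated data.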

Additional observations from a re-analysis of the deposited data

How the results depend on the processing

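No paired analysis was possible because each condition had 1 library, and for the same reason no replicate could be left out. Of the 72 recomputed counts, 61 stayed within 1.5 times the reported one. The 23 NFATc2 summits near STAT and JAK genes became 12 within 30 kb and 7 within 10 kb, 8 with a p-value of 1e-10 or less (at 3 genes in place of 8), and 8 where only summits nearest to the gene's own TSS were kept (at 3 genes). Limits of FDR 5% or TSSs of protein-coding transcripts left both NFATc2 counts within 1.5 times. Genes past 1.5-fold higher became 6 for curdlan over NT and 4 for curdlan with FK506 over NT by fold enrichment of the tallest peak, with 1 lower for curdlan with FK506 over curdlan, where 60.7% and 39.7% of all genes were higher and 28.2% lower. By tags per kb over all peaks of a gene they became 0 for both comparisons with NT, where 0.668% and 0.631% of all genes were higher. The log2 ratio of Stat5a for curdlan over NT ranged from 0.32 (tags per kb) to 1.88 (centred), and on summed tags from 1.68. Dividing by the tags left after filtering could only give the reported values, because that total equals the library total. Those recomputations are nonetheless included in the 72 counts and the 168 ratios. Counts of 0 that stayed at 0 are also among the 61. Of the 168 recomputed log2 ratios of single genes, 102 stayed inside the counting interval. On summed tags, the sign changed with scaling or peak rule for Stat5b and Jak2 with curdlan and FK506 over curdlan and for Stat3 with curdlan and FK506 over NT. Relative counting error is widest for the peaks with the fewest tags, of which those near Jak1 hold 26 and 28.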

Other observations

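NFATc2 summits lay within 1 kb of a TSS at 11 of the 66 other pathway genes, 16.7% where all protein-coding genes gave 5.29%. Of the 11, 6 were receptor genes. Il7r had a summit on its TSS (114 tags), Il2ra one 13 bp upstream (77 tags), Il10ra one 287 bp downstream (72 tags), Il6ra one 641 bp downstream (193 tags), Il15ra one 802 bp downstream (29 tags) and Ifngr2 one 836 bp downstream (170 tags). Among the negative regulators, Socs3 had a summit 24 bp downstream of its TSS (40 tags), Cish one 209 bp upstream (109 tags), Socs5 one 750 bp upstream (36 tags) and Socs1 one 900 bp upstream (87 tags). The interferon target Isg15 had one 308 bp upstream (35 tags). Of these genes, Socs3 alone was past 1.5-fold higher in H3K4me3 with curdlan over NT.

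At 3 receptor genes a weak H3K4me3 peak was listed in some conditions only. Il12rb2 had 49 tags in NT, no peak with curdlan and 49 tags with curdlan and FK506. Prlr had 33 tags in NT and no peak in the other lists, and Il27ra had 38 tags with curdlan and FK506 and no peak in the other lists. Il2rb, the chain that interleukins 2 and 15 share, had no H3K4me3 peak in the lists used here and 7 NFATc2 summits within 100 kb.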
